A study of Mus musculus with 6 samples.

Results

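Imprinted genes are expressed mainly or only from the chromosome inherited from 1 parent, and 32 of them were followed here in mouse granulosa cells with and without the histone demethylase JMJD3. They were chosen by name as members of known imprinted clusters, with earlier results of these data known. All 32 were found among the 49315 genes of the count files. Granulosa cells are the somatic cells that surround and feed the oocyte in the ovarian follicle. RNA was sequenced from 3 libraries labelled Jmjd3 knockout (KO), from a granulosa cell-specific deletion, and from 3 libraries labelled wild type (WT). All 6 came from C57BL/6J female mice of 8 to 9 weeks, and the cells were freshly isolated from the ovary. The driver of the deletion, the deleted exons, any hormone treatment and the stage of the cycle are named nowhere in the labels. Nothing in the labels ties a library to 1 animal or to a pool. The p-values set the difference between KO and WT against the spread between libraries of a group, and that spread can be technical.

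Imprints are set in the germ line as DNA methylation at control regions, 1 pattern in the egg and another in sperm. The zinc finger protein ZFP57 and its partner TRIM28 help to keep them after fertilisation. A control region often governs a whole cluster, either by a long noncoding RNA that silences its neighbours in cis, or by an insulator that decides which promoter an enhancer reaches. Many imprinted genes act on growth, such as the growth factor gene Igf2 and the growth-restraining Cdkn1c, Grb10 and Phlda2. JMJD3, encoded by Kdm6b, removes methyl groups from lysine 27 of histone H3, a mark that several imprinted clusters carry on the silent allele. Reads were counted per gene without regard to the allele, and the parental chromosomes of an inbred strain carry the same sequence, so the values below are the sum of the maternal and paternal copies and say nothing about which copy was used.

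Kdm6b itself had 64.7, 68.6 and 112 CPM (normalised read counts, scaled to the size of each library) in the KO libraries, against 72.8, 66.3 and 66.2 CPM in the WT libraries. KO replicate 3 was the highest and the other values overlapped. The log2 fold change, KO minus WT, was 0.26 ± 0.22 SE with all libraries (adjusted p = 0.755 by edgeR's quasi-likelihood test) and -0.038 without KO replicate 3 (adjusted p = 0.875, edgeR). Since the deleted exons are not given, a count over the whole gene does not check the labels. Total counts per library lay between 42379018 and 49901493, so 1 CPM stood for between 42.5 and 51.4 counts. Known granulosa cell markers summed to between 20446 and 27822 CPM in the KO libraries and between 17478 and 20584 CPM in the WT libraries, and all 12 of them were detected. KO replicate 3 stood apart from the other 5 libraries in its genes of ovulation and cumulus expansion, which summed to 2414 CPM. They summed to 609.7 and 839.7 CPM in KO replicates 1 and 2 and between 739 and 982 CPM in the WT libraries. The differences that KO replicate 3 moves most are therefore given with and without it. In bulk RNA, fewer cells of a type and less RNA per cell cannot be told apart.

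Some imprinted transcripts are precursors of microRNAs, and the microRNAs show what a host transcript can carry. On the same strand and within the span of a member, RefSeq (GRCm38.p6) places 14 microRNA hairpins in Mirg, 3 in Rian and 1 each in H19, Igf2, Meg3, Mest and Usp29. It also places the mature miR-1906 within Meg3, with no hairpin listed for it there. The mature forms below are printed 5′ to 3′ with the seed, bases 2 to 8, in capitals, since the seed sets which messages are bound. Those of H19, Igf2, Meg3 and Mest come first and those of Mirg last. Among the Mirg microRNAs, miR-453 and miR-496a-5p share the seed GGUUGCC and differ in the bases after it. Mature microRNAs are too short for these libraries and were not measured here.
miR-675-5p: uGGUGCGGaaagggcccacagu
miR-675-3p: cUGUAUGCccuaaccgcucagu
miR-483-3p: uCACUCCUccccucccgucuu
miR-770-5p: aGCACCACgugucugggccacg
miR-335-5p: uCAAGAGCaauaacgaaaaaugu
miR-453: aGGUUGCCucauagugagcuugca
miR-496a-5p: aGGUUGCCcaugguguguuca
miR-410-3p: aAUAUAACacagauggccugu
miR-409-3p: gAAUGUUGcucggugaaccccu

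Promoters of the members were read as 300 bases, from 250 before to 50 after the start, in the RefSeq set for GRCm38.p6, which held 40 windows for 26 of the 32 members. They were searched for TGCCGC, the methylated hexamer bound by ZFP57, on both strands (its other strand reads GCGGCA). It was present in 10 of the 40 windows (25.0%), and in 3813 of 32841 windows over all genes (11.6%). Those 10 belonged to Grb10, Igf2, Meg3, Mest, Nap1l5, Nnat, Plagl1, Snrpn and Zim1. The matching Mest windows overlap and hold the same sites, so windows are not independent. Counted by gene, it was present in 9 of 26 members and in 3527 of 27018 genes. The windows of the members had a median of 54.2% G or C and 11.5 CpG pairs, against 52.7% and 7.0 over all windows, and the hexamer itself contains a CpG. A match is a description of letters, not of binding, and DNA methylation was not measured. Nap1l5 and Nnat are shown because they were among the most highly expressed members and lie inside introns of other genes. The Nap1l5 window (chr6:58907077-58907376, minus strand) holds the hexamer at 2 places and the Nnat window (chr2:157559828-157560127, plus strand) at 1, in capitals.
Nap1l5: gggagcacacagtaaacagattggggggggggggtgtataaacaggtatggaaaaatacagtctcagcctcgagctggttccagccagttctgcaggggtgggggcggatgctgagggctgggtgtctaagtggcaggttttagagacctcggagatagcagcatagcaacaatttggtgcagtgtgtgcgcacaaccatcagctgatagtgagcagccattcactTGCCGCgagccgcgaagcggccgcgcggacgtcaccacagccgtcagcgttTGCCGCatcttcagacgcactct
Nnat: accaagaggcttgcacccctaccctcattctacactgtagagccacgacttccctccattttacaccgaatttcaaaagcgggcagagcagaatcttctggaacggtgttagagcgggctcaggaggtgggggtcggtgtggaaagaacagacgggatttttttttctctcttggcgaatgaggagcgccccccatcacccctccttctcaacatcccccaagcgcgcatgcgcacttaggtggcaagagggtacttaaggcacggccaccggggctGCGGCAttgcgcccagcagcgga

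The promoter of Peg3 is shown because it is shared. Peg3 and Usp29 start 164 bases apart and run in opposite directions, and 263 bases of the Peg3 window (chr7:6730370-6730669, minus strand) also belong to the Usp29 window. Capitals mark the shared stretch, which holds no TGCCGC.
Peg3: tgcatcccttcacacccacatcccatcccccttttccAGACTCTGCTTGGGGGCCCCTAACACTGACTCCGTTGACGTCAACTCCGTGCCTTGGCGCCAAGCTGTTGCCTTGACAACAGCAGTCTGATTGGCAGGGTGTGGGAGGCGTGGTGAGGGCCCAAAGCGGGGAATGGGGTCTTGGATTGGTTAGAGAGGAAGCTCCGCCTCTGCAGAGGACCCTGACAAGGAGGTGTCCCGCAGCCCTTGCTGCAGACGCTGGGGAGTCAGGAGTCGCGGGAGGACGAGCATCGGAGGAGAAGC

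The members differed widely in level, compared here as CPM per kilobase of exon and averaged over the 6 libraries. Nap1l5, a nucleosome assembly protein-like gene, was the highest at 307 CPM per kilobase, above 99.3% of the 18250 genes tested. Nnat, which encodes the small membrane protein neuronatin, followed at 68.2, and Gnas, whose main product is the stimulatory G protein alpha subunit that FSH and LH receptors signal through, at 32.4. Peg10, Plagl1, Impact, Snrpn, Ndn, H19, Sgce and Ube3a lay between 11.4 and 5.35 CPM per kilobase. Dlk1 and Igf2, both growth regulators with high levels in the fetus, were low, at 0.989 and 0.975. Usp29 and Zim1 were the lowest of the tested members, at 0.0425 and 0.0755 CPM per kilobase. Phlda2, Magel2 and Kcnk9 did not pass the filter on low counts: Phlda2 had 9, 7 and 8 counts in the KO libraries against 17, 3 and 8 in the WT libraries, Magel2 had 2, 0 and 3 against 2, 0 and 0, and Kcnk9 had 0, 0 and 1 against 0, 0 and 0, where 3 counts over the WT group would be 0.0205 CPM. Phlda2 is a placental growth restraint, Magel2 an adaptor of ubiquitin ligases and Kcnk9 a potassium channel.

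**Figure D1:**
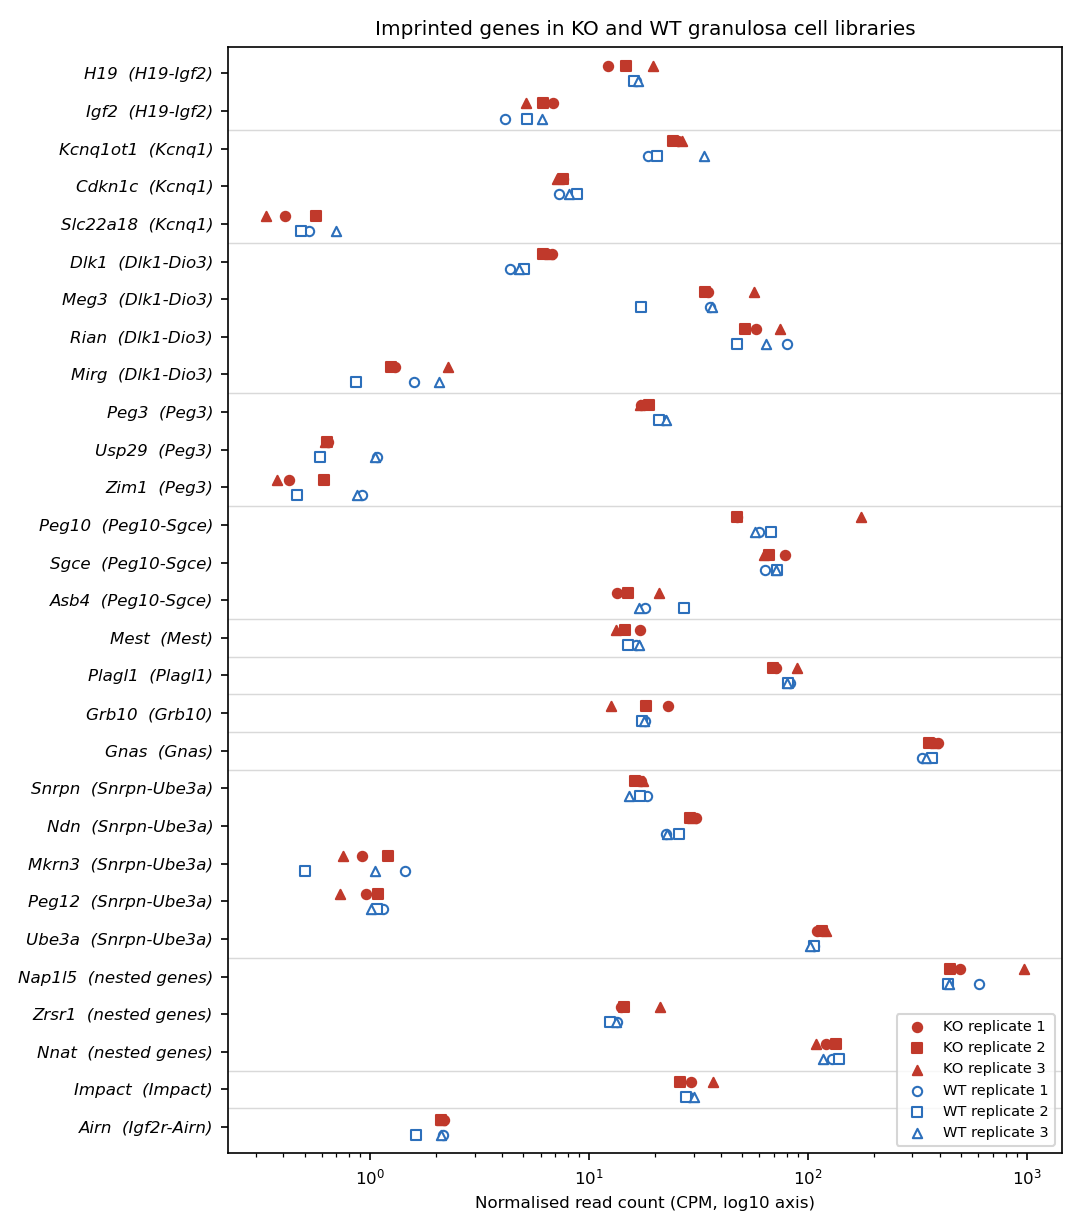
Level of each tested imprinted gene in every library (CPM, log axis), with the KO libraries (filled) drawn above the WT libraries (open) and genes grouped by cluster. Nap1l5 lay between 434.5 and 972 CPM and Zim1 between 0.374 and 0.914 CPM, and KO replicate 3 lies apart for Peg10 at 175 CPM and for Nap1l5 at 972 CPM.

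None of the 29 tested members was called at an adjusted p under 0.05 in KO against WT by edgeR, where 40 of 18250 genes were called (0.219%; 23 higher and 17 lower). At an unadjusted p under 0.05 there were 3 of the 29, Dlk1 and Ndn higher and Peg3 lower, where 9.16% of all tested genes were, and DESeq2 likewise called none and put 4 under an unadjusted 0.05 (1.18% of all genes were called by it). With no filter on low counts edgeR also called no member, where 0.617% of all genes were called. Of the members, 16 had a positive and 13 a negative log2 fold change. Their median was 0.011, beside 0.004 over all tested genes, and the values ran from -0.68 for Zim1 to 0.55 for Peg10. The median size of the difference without regard to sign was 0.119 for the members and 0.115 for all genes. The 10 tested members known to be expressed from the maternal copy in at least some tissues had a median of -0.072, and the 18 known to be expressed from the paternal copy a median of 0.045. The KO and WT libraries did not overlap for 5 of the 29 members (17.2%), where 15.6% of all tested genes did not overlap. These were Dlk1, Ndn, Ube3a and Zrsr1, higher in KO (7.68% of all genes), and Peg3, lower in KO (7.89% of all genes). Without KO replicate 3, edgeR called 1 member, Peg10, lower in KO, where 421 of 18622 genes were called (2.26%). The spread between libraries within a group was larger for the members than for genes in general, with a median SD of 0.235 on the log2 CPM scale against 0.152. The members were not matched to other genes by level, some rest on few counts, and this difference in spread was not tested.

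**Figure D2:**
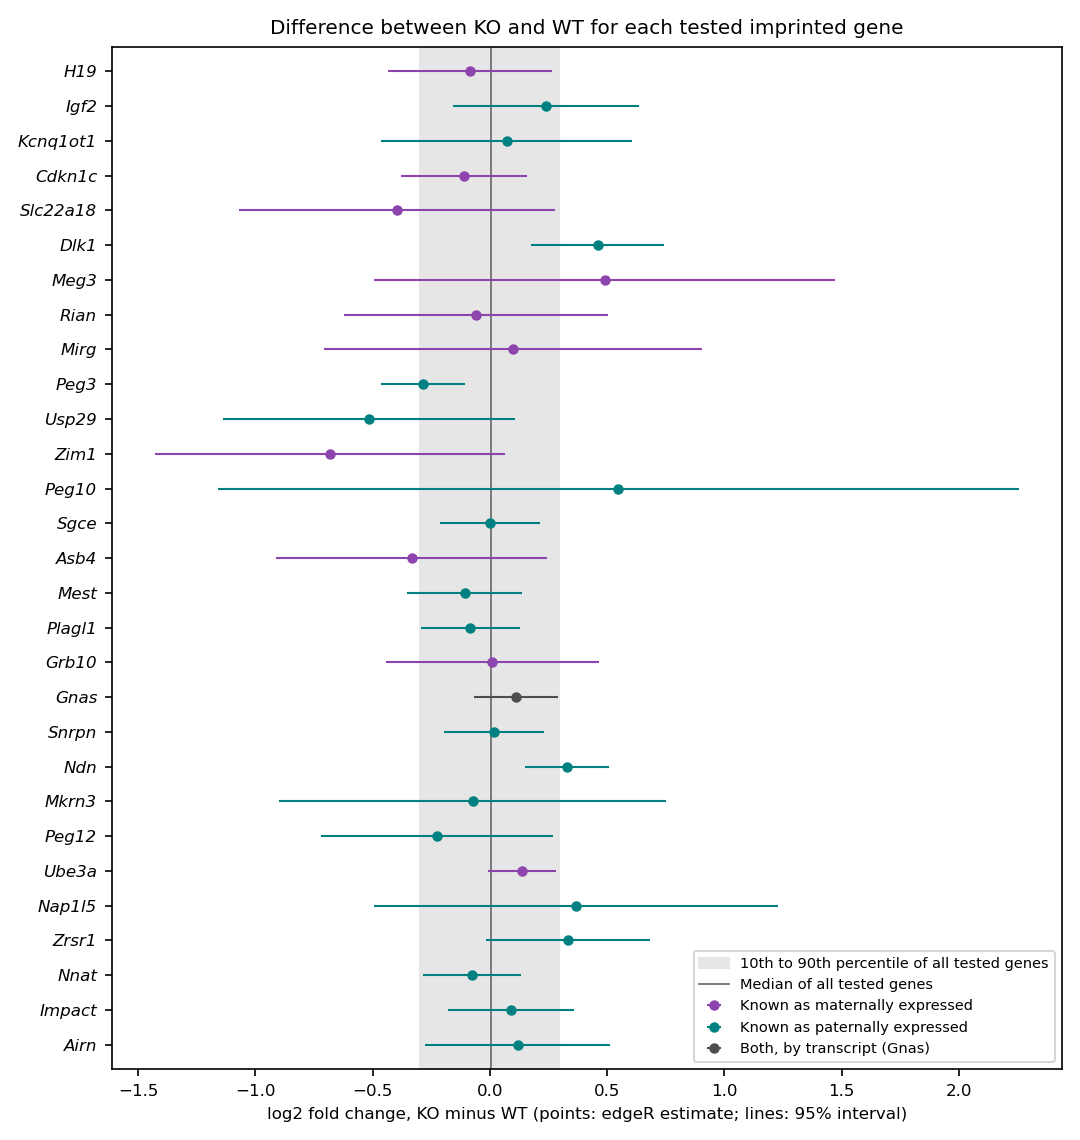
Log2 fold change of each tested member, KO minus WT, with its 95% interval from edgeR's fit of 3 KO and 3 WT libraries, coloured by the parental copy known to be expressed; the grey band holds the 10th to 90th percentile of all tested genes. Intervals of Dlk1 (0.17 to 0.74), Ndn (0.15 to 0.51) and Peg3 (-0.47 to -0.11) lay clear of 0 before adjustment over all genes, and that of Peg10 (-1.16 to 2.26) was the widest.

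The Dlk1-Dio3 cluster on chromosome 12 holds the paternally expressed Dlk1, a membrane protein related to Notch ligands that restrains adipocyte differentiation, and the maternally expressed noncoding RNAs Meg3, Rian and Mirg. Dlk1 (chr12:109452823-109463336) had 6.74, 6.15 and 6.54 CPM in the KO libraries, against 4.34, 5.04 and 4.76 CPM in the WT libraries. All KO values lay above all WT values (6.48 ± 0.30 against 4.71 ± 0.35 CPM, SD, n = 3 each), with a log2 fold change of 0.46 ± 0.13 SE and an adjusted p of 0.305 by edgeR (0.133 without KO replicate 3). Meg3 had 35.0, 33.8 and 56.9 CPM in KO, against 35.8, 17.2 and 36.6 CPM in WT. The groups overlapped: KO replicate 3 was highest and WT replicate 2 lowest, and the interval of the log2 difference ran from -0.49 to 1.47. The log2 fold change was 0.49 with all libraries, 0.205 without KO replicate 3 and 0.202 without WT replicate 2. Rian, which also carries small nucleolar RNAs, had 57.6, 51.7 and 74.7 CPM in KO, against 80.1, 47.3 and 64.2 CPM in WT, with a log2 fold change of -0.06 ± 0.23 SE (adjusted p = 0.956, edgeR). Mirg, the host of the microRNAs printed last, had 1.30, 1.25 and 2.26 CPM in KO, against 1.58, 0.860 and 2.06 CPM in WT. It had a log2 fold change of 0.098 ± 0.35 SE with all libraries and -0.24 without KO replicate 3.

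Meg3, Rian and Mirg are thought to come from 1 long transcription unit, so their ratios within a library were also compared, as a description without a test. Rian CPM over Meg3 CPM was 1.64, 1.53 and 1.31 in KO, against 2.24, 2.75 and 1.76 in WT. Mirg over Meg3 was 0.0371, 0.0369 and 0.0398 in KO, against 0.0441, 0.0501 and 0.0564 in WT. Both ratios were lower in every KO library than in any WT library, and they share Meg3 as the divisor. Of 12 ratios between neighbouring or nested genes that were looked at, 3 did not overlap between groups. By CPM, 15.6% of all tested genes did not overlap, and no such share was counted over ratios of other genes. The third of these ratios was Zrsr1 over Commd1, given below, and the pairs were chosen with values known. Dio3, at the far end of the cluster 826 kb from the start of Dlk1, was not a member and had the smallest p of the other imprinted genes. It encodes the deiodinase that inactivates thyroid hormone. It had 3.99, 4.26 and 3.84 CPM in KO, against 6.07, 5.90 and 8.61 CPM in WT, with no overlap. The log2 fold change was -0.77 ± 0.17 SE with an adjusted p of 0.196 by edgeR, and 0.0397 without KO replicate 3; with all libraries DESeq2 gave 0.00666 and edgeR with no filter on low counts 0.00427, while over the other alternatives it reached 0.63. Rtl1, a retrotransposon-derived gene needed in the placenta that lies between Meg3 and Rian on the other strand, had 0.299, 0.565 and 1.04 CPM in KO, against 0.214, 0.105 and 0.258 CPM in WT. Its log2 fold change was 1.71 ± 0.51 SE (adjusted p = 0.365, edgeR) and 1.14 without KO replicate 3 (adjusted p = 0.242, edgeR). These values rest on 14, 24 and 50 counts in KO, against 11, 5 and 13 in WT. Of the Rtl1 exon bases, 8.4% are shared, mostly with microRNAs on the other strand, and the library kit does not mark strand. Along this cluster the differences thus did not share a direction, and none passed the threshold in the edgeR fit of filtered genes with all 6 libraries. Theca and interstitial cell markers summed to between 1312 and 1857 CPM in the KO libraries and between 900.1 and 1115 CPM in the WT libraries, without overlap. All 9 were detected, of which 5 had positive and 4 negative log2 fold changes, so the sum was not shared by every marker. Red blood cell markers, 7 genes all detected, summed to between 830.2 and 2260.0 CPM in the KO libraries and between 383 and 798 CPM in the WT libraries, also without overlap. The part of either list in the Dlk1 values was not tested.

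**Figure D3:**
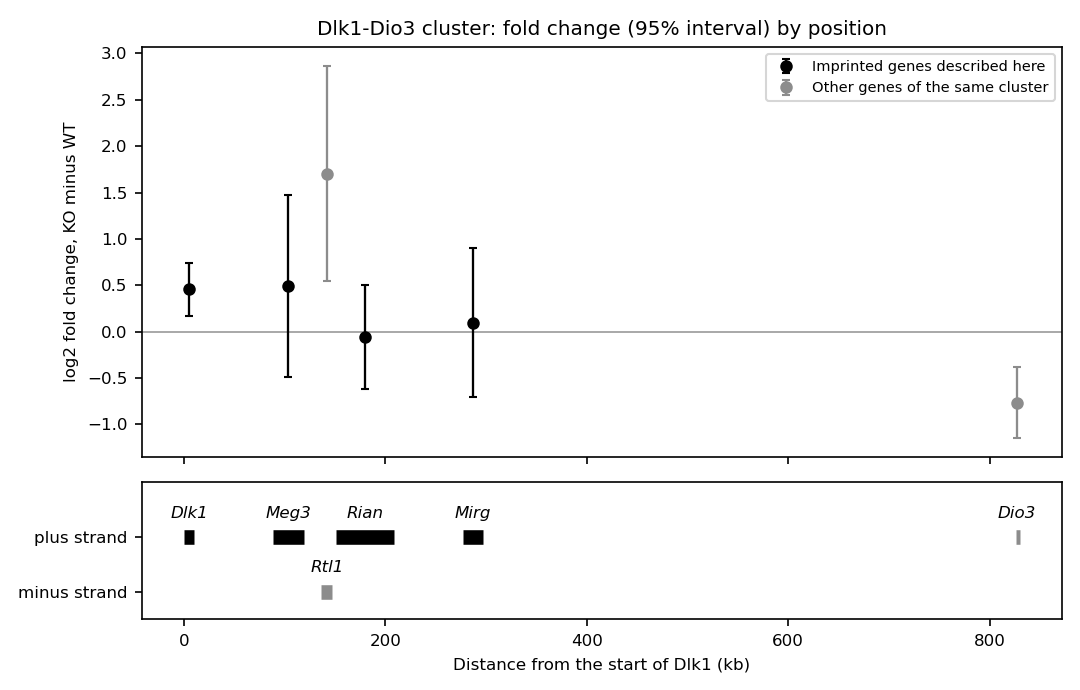
Log2 fold change (KO minus WT, with 95% interval) of genes of the Dlk1-Dio3 cluster, placed by distance in kb from the start of Dlk1, with each gene's extent and strand below. Dlk1 and Rtl1 have positive values, Dio3, 826 kb away, a negative one at -0.77, and the intervals of Meg3, Rian and Mirg span 0.

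The Peg3 cluster on chromosome 7 encodes zinc finger proteins and a ubiquitin protease. Peg3 (chr7:6703892-6730431), a paternally expressed zinc finger protein linked to growth and maternal behaviour in mice, had 17.2, 18.9 and 17.2 CPM in KO, against 21.7, 20.8 and 22.4 CPM in WT. All KO values lay below all WT values (17.7 ± 0.97 against 21.6 ± 0.81 CPM, SD, n = 3 each), with a log2 fold change of -0.29 ± 0.08 SE and an adjusted p of 0.310 by edgeR (0.175 without KO replicate 3). Usp29, the ubiquitin protease that shares the Peg3 promoter shown above, had 0.640, 0.636 and 0.623 CPM in KO, against 1.07, 0.588 and 1.05 CPM in WT. Zim1, a maternally expressed zinc finger gene, had 0.427, 0.612 and 0.374 CPM in KO, against 0.914, 0.462 and 0.872 CPM in WT. In both, WT replicate 2 was as low as the KO libraries and the groups overlapped. Their log2 fold changes were -0.52 ± 0.28 SE for Usp29 and -0.68 ± 0.33 SE for Zim1, with adjusted p of 0.611 and 0.582 by edgeR. All 3 members of the cluster therefore had lower means in KO, and none passed the threshold. Zim2, Zim3 and Zfp264, imprinted genes beside them that are not members, did not pass the filter on low counts. Their means were 0.036, 0.113 and 0.116 CPM in KO, against 0.089, 0.067 and 0.179 CPM in WT, so that of Zim3 was higher in KO. Oocyte markers, 20 genes all detected, summed to 1027, 1002 and 1125 CPM in KO, against 1178, 1194.5 and 1504 CPM in WT, without overlap. Of these markers, 19 had a negative and 1 a positive log2 fold change. The groups did not overlap for 8 of them (40.0%, beside 15.6% of all tested genes), 7 lower and 1 higher in KO. Their part in the Peg3 cluster was not tested.

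The Peg10-Sgce cluster on chromosome 6 gave the largest positive difference among the 32 genes, and it came from 1 library. Peg10 (chr6:4747306-4760517), a retrotransposon-derived gene needed for the mouse placenta, had 47.3, 47.5 and 175 CPM in KO, against 59.5, 67.9 and 57.5 CPM in WT. KO replicate 3 was 2.58-fold above the highest other library, whereas KO replicates 1 and 2 were below all WT libraries. The log2 fold change was 0.55 ± 0.63 SE with all libraries (adjusted p = 0.833, edgeR) and -0.38 without KO replicate 3 (adjusted p = 0.0223, edgeR), so the sign turned and the call appeared when that library was left out; over all alternatives the adjusted p ran from 0.0223 to 0.956. Sgce, which encodes epsilon-sarcoglycan and starts beside Peg10 on the other strand, did not follow: it had 78.7, 66.1 and 62.6 CPM in KO, against 63.5, 72.5 and 71.0 CPM in WT, with an interval of the log2 difference from -0.21 to 0.22. The ratio of Peg10 to Sgce CPM within a library was 0.601, 0.719 and 2.80 in KO, against 0.936, 0.937 and 0.809 in WT. Asb4, an ankyrin repeat protein of the same cluster, had 13.5, 15.0 and 20.8 CPM in KO, against 17.9, 27.2 and 17.0 CPM in WT, and the groups overlapped.

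Nap1l5, Zrsr1 and Nnat are small paternally expressed genes that lie within the spans of Herc3, Commd1 and Blcap, on the other strand. By the annotation Zrsr1 shares 203 exon bases with Commd1, while Nap1l5 and Nnat share none with their hosts. Their hosts are given beside them for their position, outside the rule for named genes. Nap1l5 had 493, 447 and 972 CPM in KO, against 608, 434.5 and 441 CPM in WT. KO replicate 3 was 1.60-fold above the highest other library and the other values overlapped, so the log2 fold change of 0.37 ± 0.34 SE (adjusted p = 0.776, edgeR) became -0.07 without that library. Nap1l5 over Herc3 was 12.0, 9.18 and 16.7 in KO, against 12.2, 9.78 and 9.90 in WT, and Herc3 itself was also highest in KO replicate 3, with 41.2, 48.7 and 58.3 CPM in KO, against 50.0, 44.4 and 44.6 CPM in WT. Zrsr1, related to the splicing factor U2AF, had 13.9, 14.4 and 21.0 CPM in KO, against 13.4, 12.5 and 13.2 CPM in WT. The groups did not overlap, but KO replicates 1 and 2 were close to WT: the log2 fold change was 0.33 ± 0.15 SE (adjusted p = 0.570, edgeR) and 0.12 without KO replicate 3. Commd1, the host, had 30.5, 30.1 and 29.9 CPM in KO, against 31.2, 29.7 and 29.2 CPM in WT, with an interval of the log2 difference from -0.15 to 0.16. Zrsr1 over Commd1 was 0.457, 0.478 and 0.701 in KO, against 0.428, 0.421 and 0.452 in WT. Nnat had 121, 134 and 109 CPM in KO, against 128, 138 and 118 CPM in WT, with a log2 fold change of -0.08 ± 0.09 SE (adjusted p = 0.833, edgeR), and Nnat over Blcap was 1.96, 2.33 and 2.00 in KO, against 2.23, 2.40 and 2.06 in WT.

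**Figure D4:**
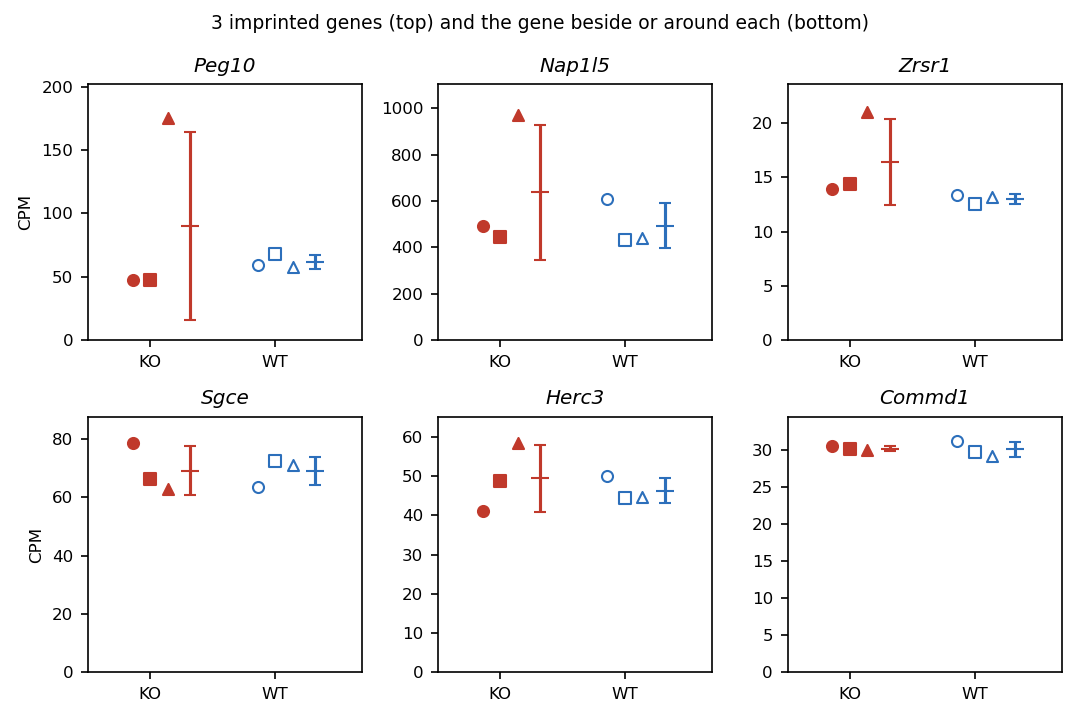
CPM of Peg10, Nap1l5 and Zrsr1 (top) and of Sgce, Herc3 and Commd1, the gene beside or around each (bottom), with the KO libraries left of the WT libraries and the mean and SD of each group beside its 3 points. KO replicate 3 (triangle) stands out at 175 CPM for Peg10, 972 CPM for Nap1l5 and 21.0 CPM for Zrsr1, while it was the lowest KO library for Sgce at 62.6 CPM and for Commd1 at 29.9 CPM.

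KO replicate 3 was thus the highest library for 9 members and the lowest for 9 others. Set against the mean of the other 5 libraries on the log2 scale, it was higher by 1.66 for Peg10, 1.01 for Nap1l5, 0.90 for Meg3, 0.72 for Mirg and 0.64 for Zrsr1. These differences exceeded those of between 95.6% (Zrsr1) and 99.5% (Peg10) of all tested genes. It was lower by comparison for Zim1 (-0.69), Slc22a18 (-0.60), Grb10 (-0.57) and Peg12 (-0.51), below which lay between 4.21% (Zim1) and 7.97% (Peg12) of all tested genes. These 9 genes are those farthest from the other libraries in each direction and are given as a description. In the same library the granulosa cell markers (27822 CPM) and the ovulation genes (2414 CPM) had their highest sums, and the stromal (1414 CPM), endothelial (191 CPM), immune (192 CPM), smooth muscle (233 CPM) and surface epithelium (494 CPM) markers their lowest. Luteal cell markers, which mark cells after ovulation, summed to 21051, 15080.0 and 11535 CPM in KO, against 12159, 9751 and 10905 CPM in WT, so that KO replicate 3 alone lay within the WT range. The part of these sums in the values of the members was not tested.

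**Figure D5:**
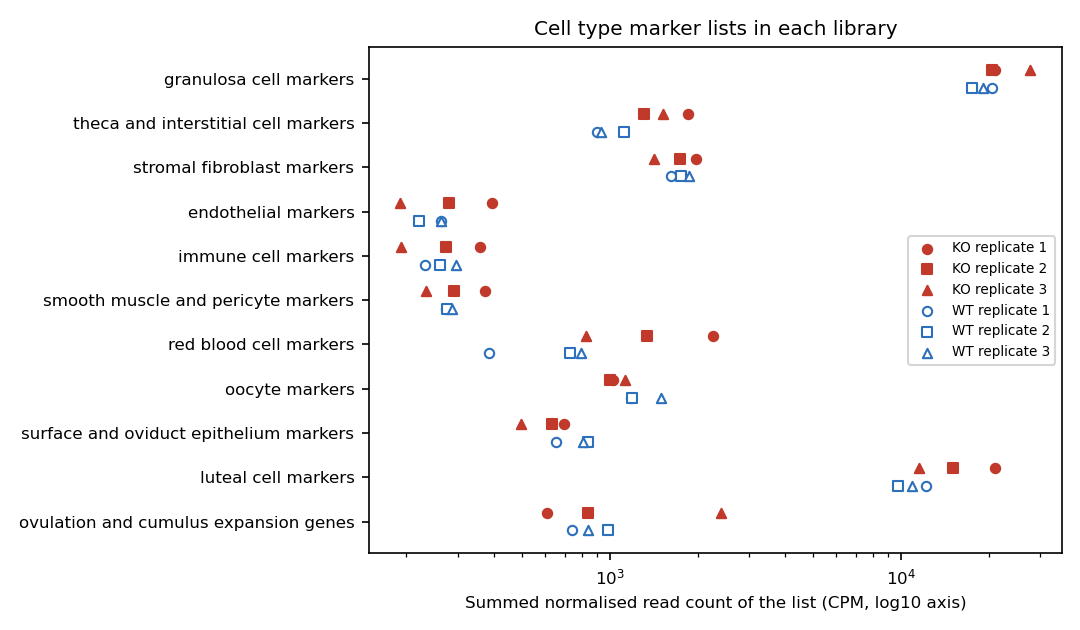
Summed CPM of marker lists in each library (log axis), with the KO libraries (filled) above the WT libraries (open). The sums of the theca and interstitial and of the red blood cell lists were higher in every KO library than in any WT library, that of the oocyte list was lower, and that of the ovulation list was highest in KO replicate 3 at 2414 CPM.

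The H19-Igf2 and Kcnq1 clusters lie side by side at the end of chromosome 7. H19, a maternally expressed noncoding RNA, had 12.2, 14.7 and 19.5 CPM in KO, against 16.4, 16.0 and 16.7 CPM in WT. The KO values lay on both sides of the tight WT values (15.5 ± 3.70 against 16.4 ± 0.35 CPM, SD, n = 3 each), with a log2 fold change of -0.09 ± 0.15 SE (adjusted p = 0.893, edgeR) and -0.29 without KO replicate 3 (adjusted p = 0.201, edgeR). Igf2, the paternally expressed growth factor, had 6.87, 6.12 and 5.13 CPM in KO, against 4.11, 5.18 and 6.07 CPM in WT, and the groups overlapped (log2 fold change 0.24 ± 0.18 SE, adjusted p = 0.708, edgeR). H19 and Igf2 compete for the same enhancers. Igf2 over H19 was 0.563, 0.417 and 0.263 in KO, against 0.250, 0.323 and 0.363 in WT, also overlapping. Kcnq1ot1, the noncoding RNA that silences its cluster on the paternal copy, had 25.5, 24.0 and 26.5 CPM in KO, against 18.6, 20.5 and 33.4 CPM in WT. It lies within Kcnq1 on the other strand, and as the library kit does not mark strand, part of its counts may be unspliced Kcnq1. Cdkn1c, a brake on the cell cycle, had 7.57, 7.61 and 7.10 CPM in KO, against 7.26, 8.75 and 8.05 CPM in WT (log2 fold change -0.11 ± 0.12 SE). Slc22a18, a membrane transporter, had under 1 CPM in all libraries and a log2 fold change of -0.39 ± 0.30 SE. The adjusted p for Kcnq1ot1, Cdkn1c and Slc22a18 were 0.945, 0.803 and 0.716 by edgeR.

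The Snrpn-Ube3a cluster, whose loss of paternal or maternal expression causes the Prader-Willi and Angelman syndromes in people, gave the member with the smallest p. Ndn (chr7:62346569-62350262), which encodes necdin, a MAGE family protein that restrains proliferation, had 30.7, 28.9 and 29.5 CPM in KO, against 22.5, 25.7 and 22.6 CPM in WT. All KO values lay above all WT values (29.7 ± 0.91 against 23.6 ± 1.83 CPM, SD, n = 3 each), with a log2 fold change of 0.33 ± 0.08 SE and an adjusted p of 0.235 by edgeR. Over the alternatives its log2 fold change stayed between 0.30 and 0.39 and its adjusted p between 0.0662 and 0.699, the lowest without KO replicate 3. Ube3a, a ubiquitin ligase that is imprinted in neurons and expressed from both copies in most other cells, had 109.97, 116 and 120.5 CPM in KO, against 107, 106 and 102 CPM in WT. These groups did not overlap either, but the log2 difference was small at 0.14 ± 0.06 SE (adjusted p = 0.574, edgeR). Snrpn, a component of small nuclear ribonucleoproteins, had 17.3, 16.2 and 17.7 CPM in KO, against 18.3, 17.0 and 15.1 CPM in WT (log2 fold change 0.02 ± 0.10 SE). Mkrn3, a ubiquitin ligase that holds back puberty in people, had 0.917, 1.20 and 0.748 CPM in KO, against 1.44, 0.504 and 1.05 CPM in WT. Peg12, related to the Wnt regulators of the Frat family, had 0.960, 1.08 and 0.727 CPM in KO, against 1.15, 1.07 and 1.01 CPM in WT. In Snrpn, Mkrn3 and Peg12 the groups overlapped, and the adjusted p were 0.966, 0.965 and 0.778 by edgeR. Ndn, Magel2, Mkrn3 and Peg12 lie within a short stretch of chromosome 7. The interval of the log2 difference ran from 0.15 to 0.51 for Ndn and from -0.90 to 0.75 for Mkrn3, which is too wide to tell them apart.

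The remaining members lie singly in this set. Gnas had 391, 359 and 379.9 CPM in KO, against 331, 367 and 347 CPM in WT, with overlapping groups and a log2 fold change of 0.11 ± 0.08 SE (adjusted p = 0.696, edgeR). Plagl1, a zinc finger factor that regulates other imprinted genes, had 71.6, 69.2 and 88.8 CPM in KO, against 82.3, 80.6 and 80.4 CPM in WT. KO replicates 1 and 2 were below and KO replicate 3 above all WT libraries, and the log2 fold change was -0.08 ± 0.09 SE with all libraries and -0.205 without KO replicate 3 (adjusted p = 0.157, edgeR). Grb10, an adaptor that dampens insulin and IGF receptor signals, had 22.8, 18.2 and 12.6 CPM in KO, against 18.1, 17.4 and 17.7 CPM in WT. Its KO values were spread on both sides of the tight WT values (17.9 ± 5.11 against 17.7 ± 0.34 CPM, SD, n = 3 each). Mest, an enzyme-like protein of the alpha/beta hydrolase fold, had 17.1, 14.6 and 13.2 CPM in KO, against 16.4, 15.0 and 17.0 CPM in WT. Impact, a regulator of translation, had 29.3, 26.1 and 36.7 CPM in KO, against 28.6, 27.8 and 30.2 CPM in WT. Airn, the noncoding RNA that silences Igf2r on the paternal copy, had 2.18, 2.10 and 2.10 CPM in KO, against 2.14, 1.62 and 2.10 CPM in WT. Airn over Igf2r was 0.0132, 0.0131 and 0.0114 in KO, against 0.0135, 0.0114 and 0.0130 in WT. Airn starts within Igf2r on the other strand, and Igf2r had between 141 and 184 CPM. As the library kit does not mark strand, part of the Airn counts may be unspliced Igf2r. For Grb10, Mest, Impact and Airn the groups overlapped, and the adjusted p lay between 0.787 for Mest and 0.990 for Grb10 by edgeR.

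Several members share exon bases with another gene, which limits what their counts mean when the kit does not mark strand. By the GENCODE M21 annotation the shared share was 34.1% for Snrpn (mostly with Gm38393, and less with Snurf, both on the same strand), 30.65% for Cdkn1c, 27.3% for Ube3a, 23.1% for Mest (with Copg2 on the other strand) and 21.96% for Gnas. It was 14.8% for Usp29, 9.49% for H19, 8.29% for Meg3 (mostly with Gm26906 on the other strand) and 6.19% for Zrsr1 (with Commd1 on the other strand). Dlk1, Peg3, Ndn, Peg10, Sgce and Nap1l5 shared none.

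Imprinted genes outside the 32 were looked at in the same fit. Of 52 listed, 40 were tested and none was called by edgeR; 7 had an unadjusted p under 0.05, 4 higher and 3 lower in KO, where 9.16% of all tested genes did. DESeq2 called 2, Dio3 and Smoc1, where it called 1.18% of all genes, and edgeR with no filter on low counts called the same pair, where it called 0.617%. Of the 40, 26 had a positive and 14 a negative log2 fold change, with a median of 0.072, and 10 did not overlap between groups (25.0%, beside 15.6% of all tested genes). Smoc1, a secreted protein of the matrix that modulates BMP signals, had 284, 229 and 283 CPM in KO, against 179, 207 and 207 CPM in WT. All KO values lay above all WT values, with a log2 fold change of 0.43 ± 0.10 SE and an adjusted p of 0.235 by edgeR, 0.0311 by DESeq2 and 0.00614 by edgeR with no filter, while over the other alternatives it reached 0.675. Phactr2, a regulator of actin and protein phosphatase, had 81.3, 86.2 and 91.4 CPM in KO, against 105, 103 and 94.98 CPM in WT (log2 fold change -0.23 ± 0.07 SE, adjusted p = 0.377, edgeR). Cd81, a tetraspanin and the highest of these genes per kilobase, averaged 486 ± 58.6 CPM in KO and 426 ± 28.7 CPM in WT, and Dcn, the matrix proteoglycan decorin, 107 ± 33.7 and 129 ± 28.7 CPM (SD, n = 3 each), with adjusted p of 0.622 and 0.805 by edgeR.

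The genes that set or keep imprints were not called either, apart from Dppa3 with no filter on low counts. Of 23 listed, 22 were tested; 2 had an unadjusted p under 0.05 by edgeR, both lower in KO, where 9.16% of all tested genes did, and the median log2 fold change was -0.035. Dppa3, also called Stella, protects imprints in the egg and early embryo; it had 26.1, 22.6 and 23.9 CPM in KO, against 27.9, 30.3 and 37.3 CPM in WT (log2 fold change -0.39 ± 0.11 SE, adjusted p = 0.326, and 0.0289 with no filter, edgeR; up to 0.722 over the other alternatives). Dnmt3l, the cofactor of methylation in the growing oocyte, had 5.37, 5.77 and 6.96 CPM in KO, against 6.44, 7.85 and 9.00 CPM in WT (log2 fold change -0.36 ± 0.16 SE, adjusted p = 0.545, edgeR). Zfp57 had 67.9, 67.4 and 83.7 CPM in KO, against 75.5, 80.7 and 97.4 CPM in WT, with an adjusted p of 0.629 by edgeR. Dppa3 and Dnmt3l are expressed in oocytes, and the sum of the oocyte markers was lower in every KO library than in any WT library, as given above. The part of the oocyte markers in these values was not tested. Trim28 averaged 407 ± 12.4 CPM in KO and 407 ± 16.5 CPM in WT, Yy1, a factor bound at several imprinted clusters, 100.5 ± 12.1 and 96.1 ± 4.46 CPM, and Ehmt2, which methylates lysine 9 of histone H3, 176 ± 6.67 and 172 ± 3.68 CPM (SD, n = 3 each). Ezh2, which places the mark that JMJD3 removes, had a log2 fold change of -0.12 ± 0.08 SE (adjusted p = 0.695, edgeR).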

How the data were processed

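RNA-seq of mouse granulosa cells was analysed from 3 KO and 3 WT libraries, grouped and numbered by their titles. The values are whole-number counts per gene as the authors deposited them, not normalized. Per the labels' protocols, libraries were made from 500 ng total RNA with the NEBNext Ultra kit, which does not mark strand, and read as pairs of 150 bases. The submitters' processing notes name Trimmomatic 0.36, STAR 2.5.2b, Subread 1.5.2 with featureCounts, and GRCm38. For the annotation release, the strand setting and reads with several matches, nothing is stated in those sources.

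Symbols came from GENCODE M21 (48970 of 49315 identifiers matched). Coordinates are those of the count files, from 1. Counts were tested with edgeR 4.0.16 in R 4.3.3: filterByExpr kept 18250 genes (17050 had no count), TMM scaled the libraries, and the robust quasi-likelihood test compared KO with WT with no covariate. P-values were adjusted by Benjamini-Hochberg over all genes kept, and the threshold for a call was 0.05. CPM use TMM-adjusted library sizes, log2 CPM a prior count of 2, and intervals 95% confidence. The common biological coefficient of variation was 0.136. Total counts of 42379018 to 49901493 set the counting precision, and intervals cover the spread between libraries. No pair of libraries agreed within sampling noise.

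The members and lists were chosen with earlier results of these data known. Named were all 32 members, Kdm6b, and of the other imprinted and machinery lists the 4 genes with the smallest p and the 3 with the highest level per kilobase. Other genes are given for their position and were chosen after values were seen. In simulated counts for KO against WT (18250 genes, 200 changed), the test recovered 45.5% of tested genes changed 1.5-fold, 71.2% of those changed 2-fold and 96.9% of those changed 4-fold, and 9.09% of calls were false. Alternatives were RLE and upper quartile scaling, DESeq2 1.42.0, limma-voom (limma 3.58.1) with quality weights, no filter, a mean of at least 1 CPM, a replicate block and leaving out each library.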

Additional observations from a re-analysis of the deposited data

How the results depend on the processing

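The number of genes called over all genes was 40, against 222 with DESeq2, 85 with limma-voom, 199 with no low-count filter, 21 with a 1 CPM minimum on the mean, and 8 (without WT replicate 2) to 421 (without KO replicate 3) when 1 library was left out. Members called were 0 in every setting but 1, the range with 1 library left out being 0 to 1 (Peg10, without KO replicate 3). Other imprinted genes called were 2 with DESeq2 and 2 with no filter, Dio3 and Smoc1 in each, and 0 to 1 with 1 library left out. Machinery genes called were 1 with no filter (Dppa3).

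The members' median log2 fold change of 0.011 was -0.011 with upper quartile scaling, -0.025 with limma-voom, -0.003 with no filter and -0.028 to 0.077 with 1 library left out. Of 373 values of single members under the alternatives, 338 kept their sign and 35 turned, in 13 of 29 members. With limma-voom these were Mirg (-0.09), Peg10 (-0.162), Sgce (-0.016), Snrpn (-0.025), Mkrn3 (0.186), Nnat (0.015) and Impact (-0.058). With upper quartile scaling they were Sgce (-0.02), Grb10 (-0.011) and Snrpn (-0.004). With no filter they were Sgce (-0.012) and Grb10 (-0.003), and with the 1 CPM minimum Sgce (-0.007). With 1 library left out the ranges were -0.288 to 0.054 for H19, -0.087 to 0.376 for Kcnq1ot1, -0.245 to 0.137 for Rian, -0.238 to 0.395 for Mirg, -0.379 to 0.853 for Peg10, -0.109 to 0.068 for Sgce, -0.214 to 0.209 for Grb10, -0.053 to 0.083 for Snrpn, -0.396 to 0.286 for Mkrn3, -0.073 to 0.567 for Nap1l5, -0.059 to 0.194 for Impact and -0.01 to 0.19 for Airn. The cause was not tested.

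Same-numbered libraries did not deviate together (correlations -0.0165, 0.0740 and -0.0326). The labels do not say that they are paired, and a shared day or batch was not tested. With the replicate block 15 genes were called, 14 of them among the 40; the members' median was -0.003, and Sgce (-0.003) and Grb10 (-0.027) turned sign. At this depth members under 1 CPM rest on few counts per library, and a difference of 1.5-fold was often missed in simulation.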

Other observations

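The members summed to 1633, 1544 and 2281 CPM in the KO libraries, against 1712, 1556 and 1551 CPM in the WT libraries. Nap1l5 made up 30.2%, 29.0% and 42.6% of the sum in KO, against 35.5%, 27.9% and 28.5% in WT. KO replicate 3 was the highest library for 9 of the 29 tested members and the lowest for 9 others (62.1%), where it was the highest or lowest for 43.4% of all tested genes. KO replicate 1 was at an extreme for 37.9% of the members, where it was for 42.0% of all tested genes, close to the share of KO replicate 3. KO replicate 2 was at an extreme for 6.9% of the members, where it was for 23.8% of all tested genes. The WT libraries were at an extreme for between 17.2% and 37.9% of the members and between 29.4% and 30.9% of all tested genes. Members share clusters and are not independent, and these shares were not tested.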
